A study of Caenorhabditis elegans with 2 samples.

Results

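The proteasome and CDC-48 genes described here are the 36 protein-coding genes whose names begin with pas, pbs, rpn or rpt and a number, plus cdc-48.1, cdc-48.2 and ufd-1, out of 19973 protein-coding genes on the nuclear chromosomes of C. elegans. The rule uses gene names and no measured value, but the set was proposed with earlier results of these data known. By the roles of their products they comprised 7 alpha-ring genes (pas) and 7 beta-ring genes (pbs) of the 20S core, 6 ATPase genes (rpt), 4 other genes of the 19S base (rpn-1, rpn-2, rpn-10 and rpn-13), 9 lid genes (the remaining rpn genes), and the 3 genes of the CDC-48 group. The data are ChIP-seq, in which DNA bound by a protein is precipitated with an antibody and sequenced, of SUP-37 in whole worms of strain OP611. This strain has the unc-119(tm4063) mutation and the integrated transgene wgIs611, written sup-37::TY1::EGFP::3xFLAG + unc-119(+). The larvae were mixed-sex L1 worms of 6 hours, starved after bleaching. The series held 1 group of 2 biological replicates and no comparison between conditions. An anti-GFP antibody is named for the precipitation in one label and sup-37 in another. Untagged worms and the control alignments were not analysed here, and in whole animals a signal cannot be assigned to a tissue.

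The proteasome is the main machine for degrading proteins tagged with ubiquitin. Its 20S core is a barrel of alpha and beta rings with the cutting sites inside, and its 19S cap recognises, deubiquitinates and unfolds substrates. The cap has a base, with a ring of RPT ATPases, and a lid. CDC-48, the worm p97, is an AAA ATPase that extracts ubiquitin-tagged proteins from complexes and membranes with the help of UFD-1 and NPL-4, often before the proteasome takes them. In worms, the transcription factor SKN-1A is known to raise proteasome gene expression when proteasome function is impaired.

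For each gene the summits of SUP-37 regions were taken from 1000 bp upstream to 200 bp downstream of the annotated 5′ end, here called the promoter window. Each of the pooled, replicate 1 and replicate 2 lists held 30000 peak and background regions, ranked by the authors' signal with 1 as the strongest. The authors' list of peaks kept by IDR, the irreproducible discovery rate between replicates, held 924 peaks. These were the 924 strongest regions of the pooled list. A low number is therefore a strong region, and most of the listed regions are background by the authors' own q value. The authors' q was under 0.05 for 970 pooled regions, 689 regions of replicate 1 and 1597 of replicate 2. With 2 replicates of 1 group no test between groups was possible, so the counts below are descriptions set beside the same counts over all protein-coding genes. Read depth is unknown, and intervals on shares are exact binomial (Clopper-Pearson) 95% intervals that cover counting error only.

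The summits that carry the results lay upstream of cdc-48.1, rpn-3, rpn-11 and rpn-2, the 4 genes with an IDR peak, and of rpt-2, whose region was strong in replicate 2. The 101 bp around each pooled summit are shown from the reference genome (WBcel235, the assembly of ce11), 5′ to 3′ on the strand of the gene, with the summit at base 51. Capitals mark the words TGTCAT and TATCAT or their reverse complements ATGACA and ATGATA, the core of the known SKN-1 site.
cdc-48.1 (chrII:10563533-10563633, minus strand): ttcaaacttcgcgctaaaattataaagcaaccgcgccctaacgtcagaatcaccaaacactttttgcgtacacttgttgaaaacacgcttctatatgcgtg
rpn-3 (chrIII:8447126-8447226, plus strand): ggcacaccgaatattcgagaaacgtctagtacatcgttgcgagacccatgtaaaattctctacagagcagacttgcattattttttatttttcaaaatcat
rpn-11 (chrII:4044552-4044652, minus strand): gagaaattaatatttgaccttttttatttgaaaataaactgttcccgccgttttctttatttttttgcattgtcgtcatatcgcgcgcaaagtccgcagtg
rpn-2 (chrIII:6198794-6198894, plus strand): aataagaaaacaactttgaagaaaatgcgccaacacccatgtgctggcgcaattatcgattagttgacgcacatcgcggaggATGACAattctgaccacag
rpt-2 (chrV:6017775-6017875, minus strand): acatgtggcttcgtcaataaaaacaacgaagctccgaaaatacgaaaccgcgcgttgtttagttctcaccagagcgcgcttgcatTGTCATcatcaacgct

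SUP-37 peaks of the IDR list were found at 4 of the 36 genes (11.1%, 3.11 to 26.1), while 3.44% of all protein-coding genes had one. They were cdc-48.1, the lid genes rpn-3 and rpn-11, and rpn-2 of the base. No IDR peak lay in the window of any of the 20 genes for the RPT ATPases or the 20S core. With 3.44% of all protein-coding genes having one, 20 genes are too few to read this absence as a difference. All 4 summits lay in intergenic sequence, between 56 and 340 bp upstream of the 5′ end, and each had its own gene as the nearest protein-coding 5′ end.

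cdc-48.1 had the strongest region. The gene (WBGene00007352, chromosome II, 10560036 to 10563407, minus strand) had a narrow peak from 10563469 to 10563676, with the summit 176 bp upstream of the 5′ end. The region ranked 11 in the IDR and pooled lists, 41 in replicate 1 and 3 in replicate 2, with summits 1 bp apart in the replicates. The authors' −log10 q was 3.01, 2.82 and 3.04 in the pooled list and in replicates 1 and 2. The weaker region of rpn-3, of pooled rank 156, had the same values, so they do not measure strength among the top regions. The paralog of cdc-48.1, cdc-48.2, which encodes a second CDC-48 protein, had ranks of 9991 (pooled), 18271 (replicate 1) and 20167 (replicate 2). Its summits lay 189, 205 and 208 bp upstream, but none of these regions had a q value under 0.05 (−log10 q of 0.28, 0.27 and 0.26). ufd-1, the gene of the CDC-48 cofactor that binds ubiquitin, had no pooled region in its window and had ranks of 21301 (replicate 1) and 23049 (replicate 2). The strong SUP-37 region of cdc-48.1 thus had no counterpart of like rank at its paralog.

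In the lid, rpn-3 (WBGene00004460, chromosome III, 8447353 to 8449346, plus strand) had a peak from 8446984 to 8447367, with the summit 177 bp upstream. RPN-3 is a structural lid subunit. The region had ranks of 156 (pooled), 318 (replicate 1) and 87 (replicate 2). The promoter is shared with hsp-110, a chaperone gene on the other strand, whose 5′ end was 444 bp from that of rpn-3, and the noncoding RNA gene C30C11.14 lay within 200 bp of the summit. The −log10 q was 2.82 in replicate 1 and 3.04 in replicate 2, so the region passed a q of 0.05 in both. A weaker second region in the rpn-3 window, downstream of the 5′ end, ranked 5609 in the pooled list. rpn-11 (WBGene00004467, chromosome II, 4043055 to 4044546, minus strand) encodes the metalloprotease that removes ubiquitin chains from substrates. Its peak, 4044410 to 4044793, had the summit 56 bp upstream and had ranks of 638 (pooled), 1182 (replicate 1) and 432 (replicate 2). The authors' −log10 q of this region was 0.73 in replicate 1 and 3.04 in replicate 2, so it passed a q of 0.05 in replicate 2 and not in replicate 1.

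rpn-2 (WBGene00004459, chromosome III, 6199184 to 6202594, plus strand), which encodes a scaffold subunit of the base, had a peak from 6198652 to 6199035 with its summit 340 bp upstream, in a promoter shared with C23G10.7. It ranked 918 in the IDR list, close to the end of its 924 peaks, with ranks of 1763 in replicate 1 and 630 in replicate 2, and the −log10 q was 0.54 and 2.40 there. The remaining base genes outside the ATPase ring were weak or without a region. The ubiquitin receptor gene rpn-10 ranked 26334 in the pooled list and 17171 in replicate 2, with none in replicate 1, and rpn-1 and rpn-13, genes of a scaffold and of a further ubiquitin receptor, had no region in any list. The other 7 lid genes had ranks of 7974 or weaker wherever they were listed.

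Among the ATPases that unfold substrates, the strongest region was that of rpt-2 (WBGene00004502, chromosome V, 6016059 to 6017669, minus strand). Its rank was 1168 pooled, 5977 for replicate 1 and 640 for replicate 2. The replicate summits were 148 bp apart, at 12 bp inside the gene in replicate 1 and 136 bp upstream in replicate 2. The pooled summit was 156 bp from the 5′ end of rpt-2 and 145 bp from that of aps-1, an adaptor complex gene on the other strand, and the noncoding RNA gene F29G9.10 lay within 200 bp of it. rpt-6 had ranks of 4894 (pooled), 26522 (replicate 1) and 2562 (replicate 2), with replicate summits 549 bp apart. rpt-1 ranked 16834 in the pooled list, rpt-3 was listed in replicate 2 alone, and rpt-4 and rpt-5 were in no list.

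**Figure D1:**
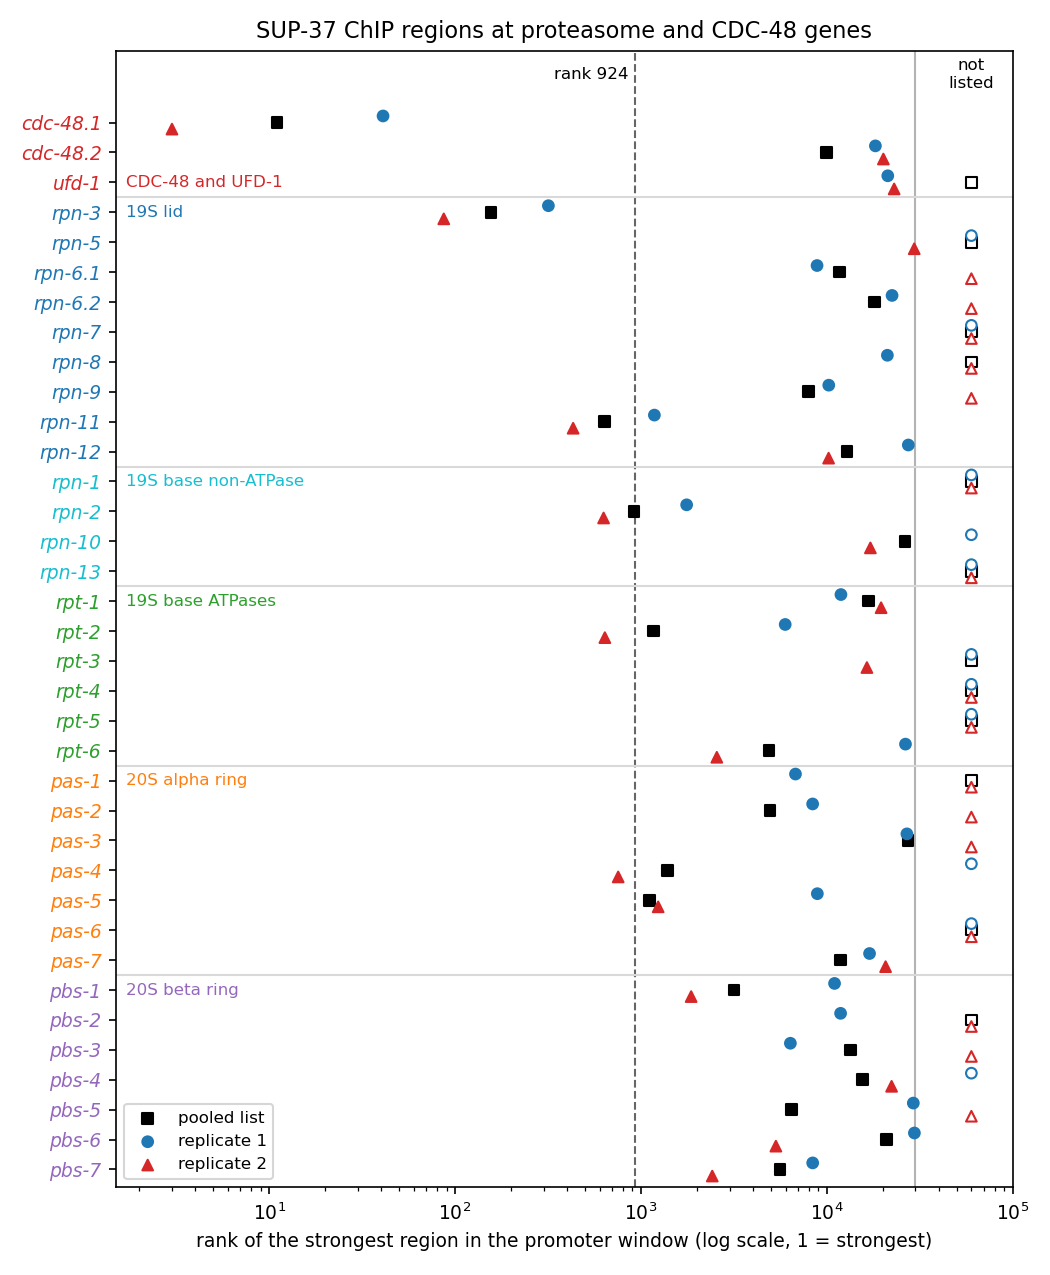
Rank of the strongest SUP-37 region in the promoter window of each of the 36 genes, on a log scale, in the pooled list (squares), replicate 1 (circles) and replicate 2 (triangles). Open symbols at the right mark genes with no region in that list, the grey line is the end of each list (30000), the dashed line is rank 924, and cdc-48.1, rpn-3, rpn-11 and rpn-2 are the genes with a pooled symbol to its left.

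In the 20S core, no gene reached the 924 strongest pooled regions, and the alpha-ring genes pas-5 and pas-4 came nearest. pas-4 (WBGene00003925, chromosome I, 8727218 to 8728487) ranked 1390 in the pooled list and 755 in replicate 2 and had no region in replicate 1. Its pooled summit lay 108 bp upstream, in a promoter shared with rpb-3, an RNA polymerase II subunit gene, and within 200 bp of the noncoding RNA gene C36B1.16. pas-2 ranked 4943 in the pooled list and 8396 in replicate 1 with no region in replicate 2, and its summit fell in a coding exon of the gene. Of the other alpha-ring genes, pas-7 and pas-3 had pooled ranks of 11862 and 27371, pas-1 had a region in replicate 1 alone, and pas-6 had none.

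pas-5 (WBGene00003926, chromosome I, 10566350 to 10567300) depended on where the window ended. Inside the window it had ranks of 1114 (pooled), 8900 (replicate 1) and 1239 (replicate 2), at 934, 864 and 915 bp upstream. A stronger peak beside the snoRNA gene F25H2.15 lay just outside, 1137 bp upstream, and had ranks of 167 (pooled), 214 (replicate 1) and 143 (replicate 2). pas-5 was the nearest protein-coding 5′ end to it. With a window of 2000 bp upstream to 500 bp downstream this peak brought the number of members with an IDR peak to 5. The share of all protein-coding genes with one then rose from 3.44% to 4.51%.

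The beta-ring genes had regions of lower rank. pbs-1, counterpart of a proteolytically active subunit in yeast, led them with 3173 (pooled), 11014 (replicate 1) and 1864 (replicate 2), with replicate summits 1 bp apart about 200 bp upstream of the gene. pbs-7 had ranks of 5591 (pooled), 8402 (replicate 1) and 2421 (replicate 2). Its replicate summits were 623 bp apart, with that of replicate 1 in an intron of the neighbouring gene F39H11.1. pbs-5, counterpart of the chymotrypsin-like subunit in yeast, ranked 6460 in the pooled list at 973 bp upstream, near the end of its window. A replicate 2 region of rank 805 lay 1134 bp upstream of pbs-5, outside the window, in an intron of the neighbouring gene K05C4.2. pbs-6, pbs-4 and pbs-3 had pooled ranks between 13422 and 20957, and pbs-2 was listed in replicate 1 alone.

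The replicates differed in how many of these genes they placed among their strongest regions. In replicate 1, the 924 strongest regions included 2 of the 36 genes (5.56%, 0.68 to 18.7), cdc-48.1 and rpn-3, beside 2.94% of all protein-coding genes. In replicate 2 they included 6 (16.7%, 6.37 to 32.8), with rpn-11, rpn-2, rpt-2 and pas-4 added, beside 3.57% of all genes. A region with the authors' q under 0.05 was present at 2 members (5.56%) in replicate 1 beside 2.42% of all genes, and at 7 members (19.4%) in replicate 2 beside 5% of all genes, pas-5 being the one added to the 6 above. Replicate 2 held more such regions in all, and the part that this plays in the members' counts was not tested.

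Farther down the lists the difference persisted to 5000 regions. The 5000 strongest regions included 4 members in replicate 1 (11.1%, 3.11 to 26.1), where all genes stood at 8.6%, and 10 in replicate 2 (27.8%, 14.2 to 45.2), where all genes stood at 10.2%. The pooled list also gave 10 members (27.8%), with all genes at 9.55%. All 4 replicate 1 genes were among the 10 of replicate 2, while of all 1717 genes in replicate 1 973 were also in replicate 2 and 744 were not. With the window of 2000 bp upstream to 500 bp downstream, pas-6 and rpn-13 were in the 5000 strongest regions of replicate 1 and not of replicate 2. Over all 30000 regions the order turned, with 25 members (69.4%) listed in replicate 1 beside 33.6% of all genes, and 20 members (55.6%) in replicate 2 beside 36.7% of all genes. The pooled list held 24 members (66.7%) beside 35% of all genes. Of the 36 genes, 15 were listed in both replicates, 10 in replicate 1 alone, 5 in replicate 2 alone and 6 in neither (pas-6, rpn-1, rpn-7, rpn-13, rpt-4 and rpt-5). Of all 19973 genes, 3797 were listed in both, 2922 in replicate 1 alone, 3535 in replicate 2 alone and 9719 in neither.

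**Figure D2:**
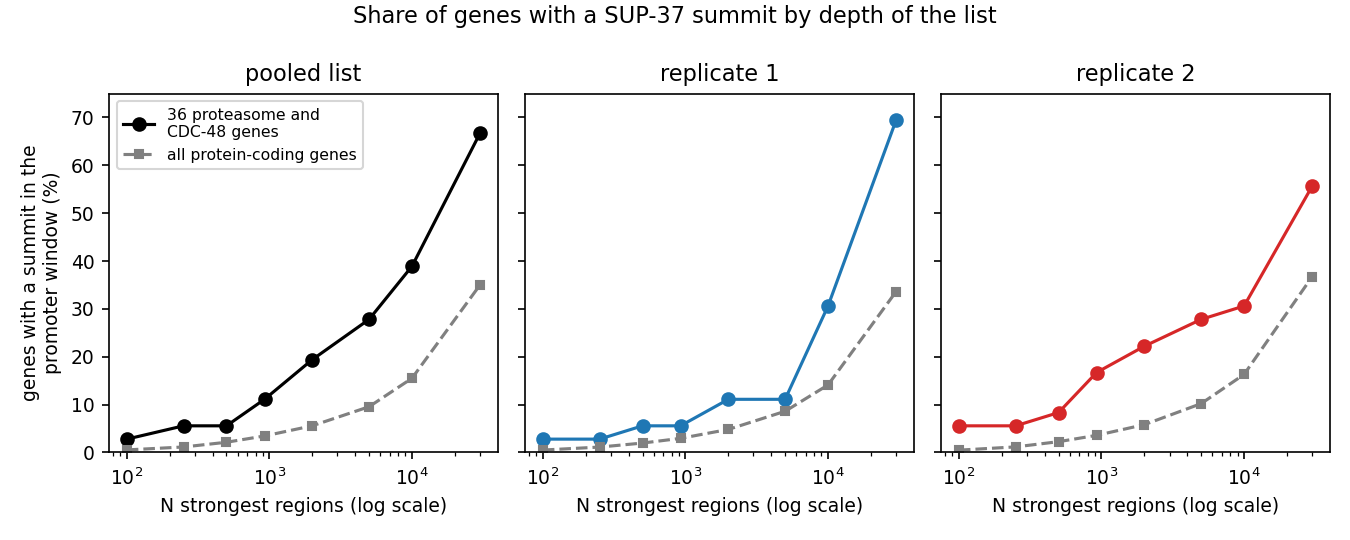
Share of the 36 proteasome and CDC-48 genes (circles, solid line) and of all protein-coding genes (squares, dashed line) with a summit in the promoter window, in percent, among the N strongest regions on a log axis. In replicate 1 the members stood at 11.1% beside 8.6% of all genes at 5000 regions, and in replicate 2 at 27.8% beside 10.2%.

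Rank by rank, the genes with strong regions stood higher in replicate 2. All 4 genes with an IDR peak had the better rank there, as did 55.6% of the 674 genes with an IDR peak that were listed in both replicates. The rank in replicate 1 was 13.7 times that in replicate 2 for cdc-48.1, 3.66 times for rpn-3, 2.8 times for rpn-2 and 2.74 times for rpn-11. Their median log2 ratio of rank in replicate 1 over rank in replicate 2 was 1.68, and that of the 674 genes was 0.12 (quartiles −0.59 and 1.00). Larger ratios than that of cdc-48.1 were seen at 24 of the 674 genes, and larger ratios than those of rpn-3, rpn-2 and rpn-11 at 73, 95 and 99.

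The genes at the top of the replicate 2 list were also compared, a choice that by itself favours the better rank in that replicate. Among the 95 genes with a summit in the 100 strongest regions of replicate 2 and a region in replicate 1, cdc-48.1 had the largest log2 ratio (3.77) and rpn-3 the next (1.87). The median of these 95 genes was 0.22, and 59 of them had the better rank in replicate 2, the list from which they were taken.

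Over all 15 members listed in both replicates, 11 had the better rank in replicate 2, beside 53% of the 3797 protein-coding genes listed in both. The median log2 ratio was 1.80 (quartiles 0.66 and 2.70) for the members and 0.08 (quartiles −0.84 and 1.13) for all these genes. The 4 members with the better rank in replicate 1 were cdc-48.2, ufd-1, rpt-1 and pas-7, all with ranks beyond 11000 in both. The spread among the members was wide, and for genes chosen as strong in replicate 2 a positive ratio is usual. Among 871 genes with no IDR peak that were in the 5000 strongest regions of replicate 2 and listed in both, the median log2 ratio was 1.80, while pbs-7, pbs-1, pas-5, rpt-2 and rpt-6 had 1.80, 2.56, 2.84, 3.22 and 3.37. The 2 ranks need not belong to the same region, as replicate summits lay 623 bp apart at pbs-7 and 549 bp apart at rpt-6. Of 11 members with replicate summits within 200 bp of each other, 8 had the better rank in replicate 2, beside 53.3% of all such genes. Their median log2 ratio was 1.48, and that of all such genes was 0.09. Replicate regions were also matched within 200 bp of the strongest pooled summit, an alternative chosen after seeing the data. With this matching 9 of 14 members had the better rank in replicate 2, beside 53% of all such genes. The median log2 ratio was 1.47 for the members and 0.09 for all genes. The largest ratio (5.18) was that of pbs-5, with ranks of 29228 in replicate 1 and 805 in replicate 2. That region of rank 805 lies outside the promoter window. pas-5 then turned to the other direction, with ranks of 214 in replicate 1 and 1239 in replicate 2, since the rank 214 is that of the peak beside F25H2.15.

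**Figure D3:**
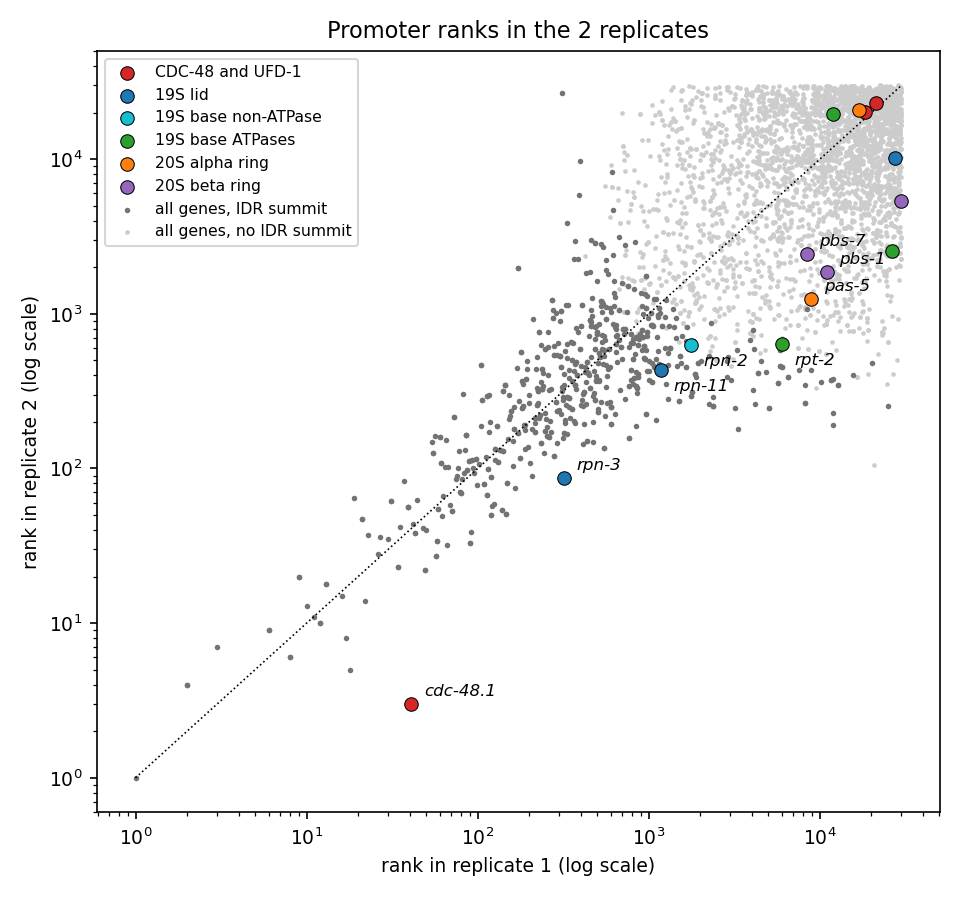
Rank in replicate 1 (x axis) and rank in replicate 2 (y axis), both on log scales, for genes listed in both replicates, with the 15 proteasome and CDC-48 genes coloured by subcomplex, all genes with an IDR summit in dark grey and other genes in light grey. The dotted line marks equal ranks, and cdc-48.1 lies far below it at 41 and 3.

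Stronger regions of these genes lay close upstream of the 5′ end. For the 10 members in the 5000 strongest pooled regions the median summit position was 176 bp upstream (quartiles 120 and 279), and for the 1908 genes in those regions it was 262 bp (114 and 570). Of these 10 summits, 9 were intergenic and 1 was in a coding exon. Among the 14 members with weaker pooled regions only 3 summits were intergenic and 8 were in coding exons, mostly of neighbouring genes. These places were not counted for all protein-coding genes, so the contrast cannot be called particular to the members. The 24 pooled regions were all different, so no region was counted for more than 1 member.

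**Figure D4:**
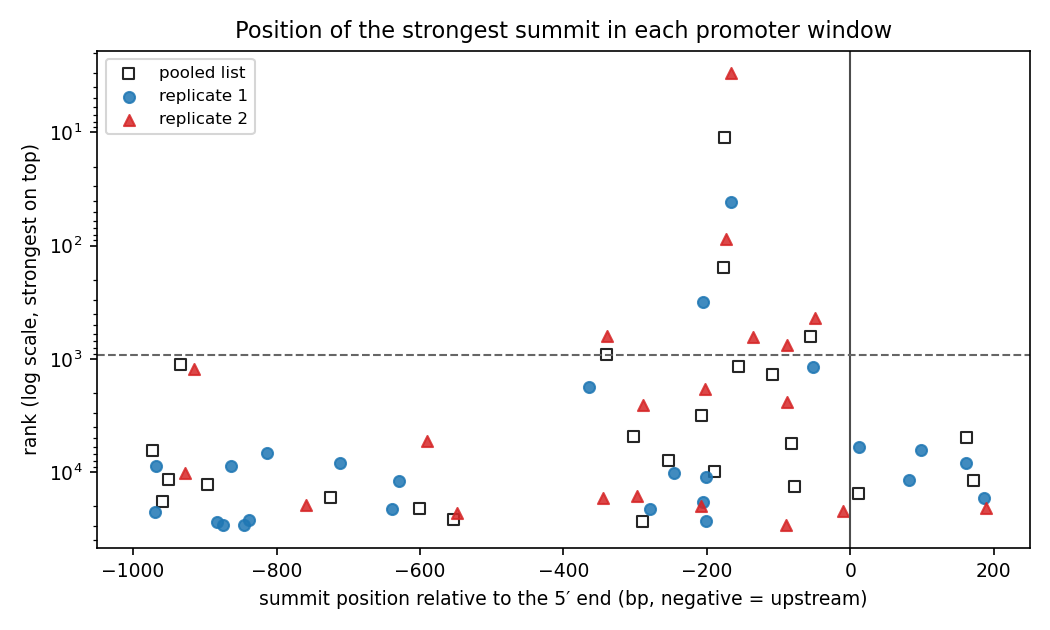
Position of the strongest summit in the promoter window relative to the 5′ end (x axis, bp, negative is upstream) against its rank (y axis, log scale, strongest on top) in the pooled list, replicate 1 and replicate 2. The dashed line is rank 924, and every symbol above it lies between 50 and 340 bp upstream.

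The promoters of these genes were often shared with a neighbour. A divergent protein-coding 5′ end lay within 1000 bp upstream of 21 of the 36 genes (58.3%), against 17.7% of all protein-coding genes. Of all divergent genes 8.56% had an IDR peak, against 2.52% of genes behind a same-strand gene and 2.29% of the others. Among the 21 divergent members 2 (9.52%) had one, rpn-3 and rpn-2. In the 5000 strongest pooled regions the divergent members stood at 6 of 21 (28.6%), beside 19% of all divergent genes. A further 8 members followed a same-strand gene that ended within 500 bp upstream, among them rpn-11, and the other 7 had neither arrangement, among them cdc-48.1. None of the 36 genes was on the X chromosome, which holds 13.7% of protein-coding genes.

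The SKN-1 core words were searched on both strands from 250 bp upstream to 50 bp into each gene. TGTCAT or its reverse complement was present in 13 of the 36 promoters (36.1%) and in 16.3% of all protein-coding promoters of that length. TATCAT or its reverse complement was present in 6 (16.7%) and in 19.4% of all promoters. Either word was present in 17 (47.2%) and in 32.3% of all promoters. In the 101 bp around the summits, either word was present in 2 of the 10 members' windows (rpn-2 and rpt-2, shown above) and in 69 of the 924 IDR windows (7.47%). These 2 sets are unlike, since the 10 members were those in the 5000 strongest pooled regions and only 4 had an IDR peak. The median GC content of the summit windows was 41.1% for the 10 members and 49.5% for the IDR peaks. Whether the words are more frequent at the members' summits was not tested. These windows are shorter than the 300 bp promoters, so the shares at summits and in promoters cannot be compared directly. Such matches describe the sequence and are not evidence of binding by SKN-1. The median GC content of the promoters was 34.3% for the members and for all genes.

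Of 32 other genes of ubiquitin and CDC-48 biology, 3 (9.38%, 1.98 to 25) had an IDR peak, beside 3.44% of all protein-coding genes. These 3 were among the 924 strongest regions of both replicates. ufd-3, which encodes a conserved partner of CDC-48, had ranks of 380 (pooled), 514 (replicate 1) and 367 (replicate 2). ubxn-2, a UBX-domain cofactor gene of CDC-48, had ranks of 398, 425 and 456 in the same lists. ubq-2, a ubiquitin fusion gene, ranked 520, 546 and 585, with frg-1 as the nearer 5′ end. skn-1 ranked 6751 in the pooled list, and npl-4.1 and npl-4.2, genes of the UFD-1 partner, had no region in any list. The 5000 strongest regions held 3 of the 32 genes in replicate 1 (9.38%), beside 8.6% of all genes. In replicate 2 they held 9 (28.1%), beside 10.2% of all genes, and in the pooled list 3 (9.38%), beside 9.55%. A higher count in replicate 2 than in replicate 1 was thus also seen outside the 36 genes.

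Cytosolic ribosomal protein genes gave a further setting. An IDR peak lay at 26 of these 81 genes (32.1%, 22.2 to 43.4), a larger share than the 11.1% of the 36 genes, although the intervals overlap. Ribosomal protein genes also held more places in replicate 2, with 30 among its 924 strongest regions and 22 in replicate 1. Their median log2 ratio of ranks over the 26 genes was 0.32, against 1.68 for the 4 members with an IDR peak. The cytosolic chaperonin genes cct-1 to cct-8 stood at 2 of 8 in the 924 strongest regions of each replicate. In the 5000 strongest regions they went the other way, with 4 of 8 in replicate 1 and 2 of 8 in replicate 2, and the median log2 ratio of the 5 listed in both was −1.15.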

How the data were processed

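SUP-37 ChIP-seq of starved L1 larvae was analysed from the authors' region lists. Per the deposited descriptions, regions were called on ce11 against 2 control alignments, for each replicate and for the pool, and the IDR list was made from these lists. No source used here names the caller, the aligner or the IDR cutoff, and the DNA fragments were 200 to 800 bp per the labels. The deposited signal (column 7) has no stated scale, so it served only to rank regions within a list. The deposited −log10 q value (column 9) was used with a cutoff of 0.05. Replicate numbers are those of the labels. The reference was Ensembl release 115 (WBcel235) with the RefSeq sequence of the same assembly, and all regions lay within its chromosomes. Scripts used Python 3.11.15, pandas 2.3.3, scipy 1.17.1 and pysam 0.24.0, and the window assignment was tested on simulated data. A summit counted for every gene whose window held it. Members, gene lists and alternatives were chosen with earlier results of these data known. The genes given in full were those with an IDR peak, those among the 924 strongest regions of either replicate, and the best-ranked gene of each subcomplex. Other members were named after their values were seen. The alternatives were other promoter windows, all transcript 5′ ends, the nearest 5′ end only, overlap of 1 bp, the stronger part of the IDR list, each replicate alone and other ways of matching the replicates.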

Additional observations from a re-analysis of the deposited data

How the results depend on the processing

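The number of members with an IDR peak stayed at 4 with the window of 500 to 100 bp and with all transcript 5′ ends. It was also 4 with the nearest 5′ end only and with overlap by 1 bp. It was 5 with the window of 2000 to 500 bp, through pas-5. Of all protein-coding genes 2.67% had an IDR peak with the 500 bp window and 4.51% with the 2000 bp window. That share was 3.74% with all transcript 5′ ends and 2.46% with the nearest 5′ end only. The number of members was 2 when the IDR list was limited to peaks above its median rank, which leaves cdc-48.1 and rpn-3. At a similar depth, the 500 strongest pooled regions, 2 members (5.56%) stood beside 2.13% of all genes. Taken from 1 replicate at a time the number of members ranged from 2 (without replicate 2) to 6 (without replicate 1), and the genes were those described for each replicate. Members in the 5000 strongest regions of replicate 1 were 8 in place of 4 with the 2000 bp window, by pas-5, pas-6, rpt-6 and rpn-13, while 14.5% of all genes were then included. Members with the better rank in replicate 2 were 7 of 8 in the window of 500 bp, in place of 11 of 15, since fewer members were listed. The share of all genes was not counted for that window, so the 7 of 8 has no background beside it. Taking the summit nearest to the 5′ end moved rpn-3 from rank 156 to 5609 in the pooled list. The median log2 ratio of ranks stayed positive in each alternative run, from 0.99 to 2.56. The 2.56 was for the 9 members listed in both and in the 5000 strongest regions of at least 1 replicate. The value for all such genes was 0.25. All 9 were in the 5000 strongest regions of replicate 2, so that choice itself favours a positive ratio. In the other runs the median was at most 1.85. No paired analysis was possible because there was 1 group. Read depth is unknown, so the precision of single ranks cannot be given.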
